A study of Mus musculus with 14 samples.

Results

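The genes described here are 10 that fell in germinal centre B cells when Crebbp was lost: Crisp3, Ccdc175, Tktl1, Tmem51, Rnf183, Hs3st1, Cyp27a1, Ffar2, Ddx25 and Btnl2. They were chosen among 18193 named genes and were selected on their lower log2 intensity in knockout than in wild-type mice on these same arrays, so that difference is given as a description, with no test. All probe sets annotated to one of them alone were taken, 14 in number, of which 12 had a mean above the expression filter (6.43 on the log2 scale, the median of all non-control probe sets). Each gene's brightest probe set passed that filter, and 7 genes had a single probe set. Germinal centre B cells were sorted as B220+CD95+PNA+ from the spleens of 14 mice, 1 Affymetrix array per mouse. The KO mice were Crebbpfl/fl Cg1-Cre (n = 5, 3 males), the HET mice Crebbpfl/+ Cg1-Cre (n = 5, 2 males) and the WT mice Crebbp+/+ Cg1-Cre (n = 4, 1 male). All carried the Cre transgene, were of C57BL/6x129Sv background, were 8 to 12 weeks old, and had received an immunisation with sheep red blood cells on day 0 and again on day 5 before they were killed on day 12. Cg1-Cre recombines floxed DNA once a B cell has been activated, and the share of recombined cells in each sort was not measured by these arrays.

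CREBBP is a lysine acetyltransferase and coactivator that is recruited to enhancers and promoters by transcription factors, among them CREB, and acetylates histones there. It is often mutated in lymphomas that arise from germinal centre B cells, commonly on 1 allele, and the HET mice address that case. The 10 genes do not form a pathway. They encode a secreted and several membrane proteins (Crisp3, Btnl2, Ffar2, Tmem51), enzymes of sugar, sterol and heparan sulphate metabolism (Tktl1, Cyp27a1, Hs3st1), and proteins for ubiquitin transfer and RNA unwinding, with a further coiled-coil protein (Rnf183, Ddx25, Ccdc175).

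The promoters of the genes were searched for the element through which CREB binds, in windows from 250 bases before to 50 after each RefSeq transcription start (build GRCm38.p6). All 10 genes matched the table by symbol, with 14 windows, of which Ffar2 had 4 and Rnf183 2. The full palindromic cAMP response element, TGACG followed by TCA, was in 0 of the 14 windows, against 1.79% of all 32851 windows. Its one-sided form TGACG, read on both strands and contained in the full element, was in 2 of the 14, those of Ccdc175 and Rnf183, against 20.8% of all windows. The 250 bases before the start are shown for these windows because they carry the match, which is in capitals as CGTCA, the same letters read on the other strand. The match begins 27 bases before the start in Ccdc175 (chr12:72185030-72185279, minus strand) and 124 bases before it in Rnf183 (chr4:62435251-62435500, minus strand, the upstream one of its 2 windows).
Ccdc175: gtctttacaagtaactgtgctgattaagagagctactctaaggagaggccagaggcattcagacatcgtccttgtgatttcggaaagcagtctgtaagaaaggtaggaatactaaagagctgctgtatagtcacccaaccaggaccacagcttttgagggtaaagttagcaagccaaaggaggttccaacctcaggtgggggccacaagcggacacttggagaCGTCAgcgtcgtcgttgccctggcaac
Rnf183: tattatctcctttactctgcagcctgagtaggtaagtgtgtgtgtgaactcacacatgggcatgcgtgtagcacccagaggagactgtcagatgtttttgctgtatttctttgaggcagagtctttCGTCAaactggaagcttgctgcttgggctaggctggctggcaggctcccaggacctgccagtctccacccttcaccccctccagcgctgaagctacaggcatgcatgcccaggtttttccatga
A match is only a run of letters in this window. Base composition also differed among the genes. The Crisp3 window was 37.7% G or C with 0 CG dinucleotides and the Btnl2 window 50.3% with 2, while the Ddx25 window was 75.0% with 41 and the Hs3st1 window 67.0% with 24. The median of the 14 windows, 52.7%, was that of all windows.

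The arrays were similar in quality, with a median correlation to the others of 0.979 for KO 3 and 0.984 to 0.990 for the rest. Crebbp itself averaged 9.42 ± 0.10 in KO, 9.95 ± 0.17 in HET and 10.29 ± 0.08 in WT (SD) on the one of its 4 probe sets with the largest difference, and the KO differences of the 4 ran from -0.86 to -0.30. Where these probe sets lie relative to the floxed exons was not given in the sources used here. Named markers of germinal centre B cells were above the filter in 11 of 11 cases. Of the plasma cell markers 6 of 7 were, and of the naive or follicular B cell markers 4 of 5. Of the dendritic cell markers 3 of 6 were, and of the follicular dendritic and stromal markers 2 of 6. Of the T cell markers 2 of 7 were, of the erythroid markers 0 of 3, of the neutrophil markers 2 of 8 and of the macrophage and monocyte markers 3 of 10. Among all these lists limma called only Rgs13 (lower) and the plasma cell gene Sdc1 (higher) in KO against WT. Summed linear intensities were 52010 to 56920 in KO, 55140 to 57450 in HET and 56780 to 59450 in WT mice for the germinal centre list, and 15730 to 18640 in KO, 16850 to 18320 in HET and 17550 to 18830 in WT mice for the plasma cell list. They were 3311 to 4937 in KO, 4117 to 5385 in HET and 4870 to 5186 in WT for naive B cells, and 1138 to 1688 in KO, 1507 to 1838 in HET and 1687 to 1877 in WT for dendritic cells. The sums of all 4 of these lists, germinal centre B cell markers included, reached lower in KO than in WT mice, with some overlap of the ranges, and their part in the results below was not tested. T cell markers summed to 344 to 689 in KO, 352 to 556 in HET and 416 to 508 in WT, and follicular dendritic and stromal markers to 438 to 544 in KO, 507 to 534 in HET and 446 to 583 in WT, all overlapping. Since each array measures a bulk of sorted cells, fewer cells that express a gene and less RNA per cell cannot be told apart.

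All 10 genes were lower in KO mice, where limma gave differences from -1.47 (SE 0.29) for Crisp3 to -0.72 (SE 0.09) for Btnl2 on the log2 scale, that is 2.77-fold to 1.65-fold lower intensity. Among the 10225 genes tested, 1.26% were called lower in KO against WT (adjusted p under 0.05) and all 10 were among those 129, which the choice of the genes fixes (1.17% of tested genes were called higher). By size of the fall among these 129 they held ranks 1, 3 to 6, 8, 10 to 12 and 24. The choice had no numerical threshold. Genes of similar size that were not chosen include Pde2a at -1.22 and Ifnlr1 at -1.02. On the brightest probe set of each of the 10 genes every KO mouse lay below every WT mouse, a pattern that 3.65% of all tested genes showed. With the mean of all probe sets of a gene this held in 9 of the 10. HET means lay between the KO and WT means in 10 of 10 genes, as they did in 99.2% of the genes called lower in KO and in 29.1% of all tested genes.

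**Figure D1:**
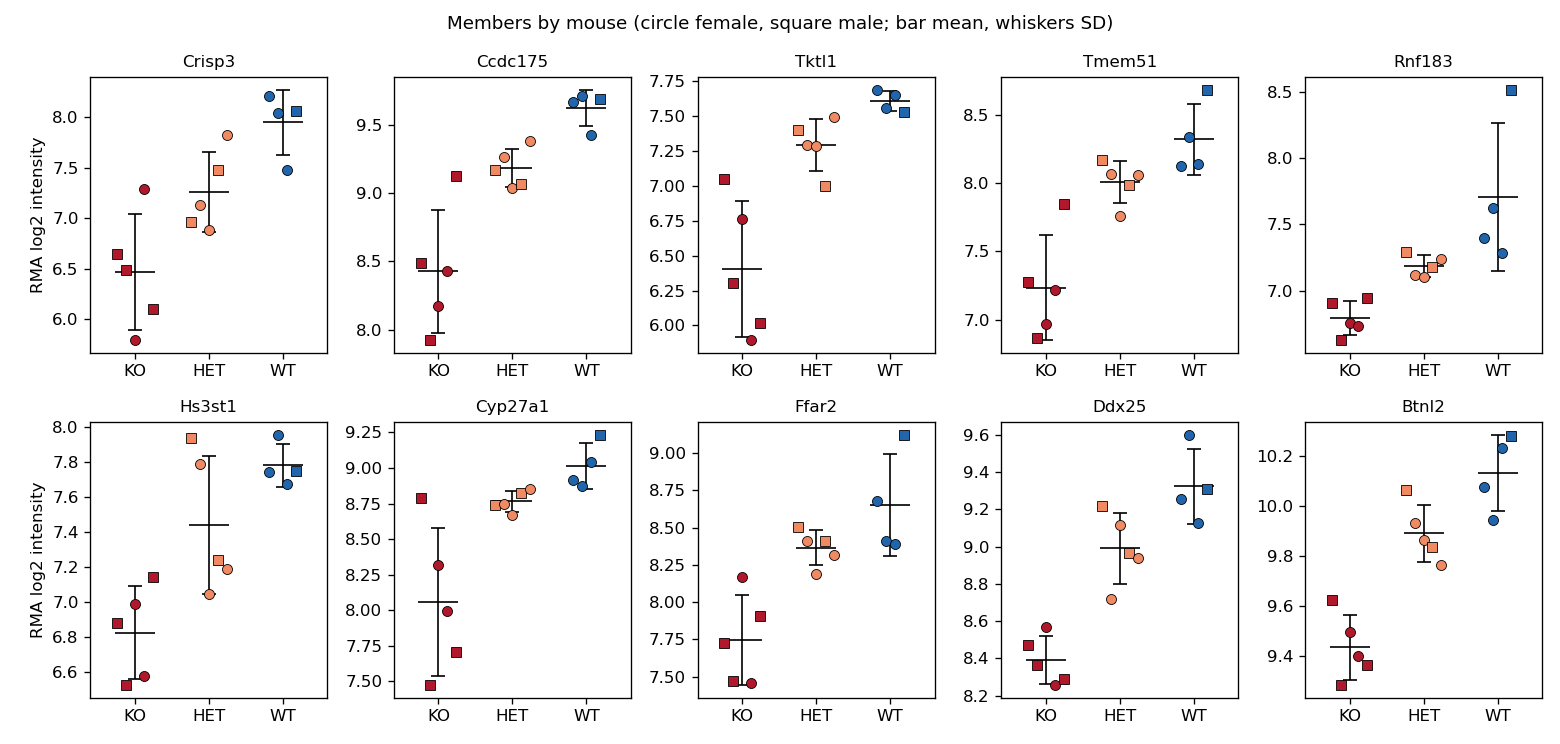
RMA log2 intensity (y axis of each panel) of the brightest probe set of each of the 10 genes in every mouse, with KO, HET and WT from left to right, circles for females, squares for males, bars for means and whiskers for SD. In each panel all KO points lie below all WT points, and the HET mean lies between the KO and WT means.

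Among the genes for secreted and membrane proteins, Crisp3 had the largest fall. It encodes a cysteine-rich secretory protein of the CAP family. Its log2 intensities were 6.65, 6.49, 5.80, 7.29 and 6.11 in the KO mice, 6.96, 7.13, 6.88, 7.48 and 7.83 in the HET mice and 8.21, 8.04, 7.47 and 8.06 in the WT mice. KO and WT did not overlap, but KO 4 lay above 3 of the 5 HET mice and HET 4 and HET 5 reached the lowest WT value. Group means were 6.47 ± 0.57 in KO (SD, n = 5), 7.26 ± 0.39 in HET (SD, n = 5) and 7.95 ± 0.32 in WT (SD, n = 4), and KO intensity was 36.2% of WT in limma. The WT 3 array was the lowest of its group, and the residual SD of Crisp3 was at percentile 98.7 of all tested genes. Without KO 3, whose array correlated least with the others, and WT 4, the only male WT mouse, the difference was -0.99.

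Btnl2 encodes a butyrophilin-like membrane protein that restrains T cell activation in mice. Its values were 9.62, 9.28, 9.50, 9.40 and 9.37 in the KO mice, 10.07, 9.93, 9.86, 9.84 and 9.76 in the HET mice and 10.07, 9.95, 10.23 and 10.28 in the WT mice. All KO mice lay below all HET mice, and 4 of 5 HET mice lay below all WT mice. The means were 9.43 ± 0.13 in KO (SD, n = 5), 9.89 ± 0.11 in HET (SD, n = 5) and 10.13 ± 0.15 in WT (SD, n = 4). Btnl2 had the smallest fall of the 10, to 60.5% of the WT intensity, and also the smallest spread, with a residual SD at percentile 39.4 of all tested genes.

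Ffar2 encodes a G protein-coupled receptor for short-chain fatty acids, known from neutrophils and other leukocytes. Its brighter probe set gave 7.73, 7.47, 8.17, 7.46 and 7.91 in the KO mice, 8.51, 8.41, 8.19, 8.41 and 8.32 in the HET mice and 8.68, 8.41, 8.39 and 9.12 in the WT mice. Every KO value was below every HET value, while HET and WT overlapped. WT 4, the male WT mouse, was the highest of all 14 at 9.12, and without it the KO difference was -0.76 in place of -0.96. The second probe set of Ffar2 gave 7.33, 7.36, 7.37, 6.69 and 7.10 in the KO mice, 7.71, 7.48, 7.40, 7.63 and 7.24 in the HET mice and 7.44, 7.69, 7.50 and 7.96 in the WT mice. On that one KO and WT again did not overlap, HET overlapped with both, and the difference was -0.58 (SE 0.13). Both probe sets of Ffar2 were annotated to the same sequence record, so they share a target. The summed intensity of the 8 neutrophil markers measured was 353 to 1399 in KO, 330 to 1842 in HET and 353 to 1796 in WT mice. Their ranges overlapped, 0 of the 2 markers above the filter (S100a8 and S100a9) were called, and Camp, Ngp, Ltf, Elane, Mpo and Cxcr2 were below the filter; the part of neutrophil RNA in the Ffar2 values was not tested.

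Tmem51 encodes a transmembrane protein. Its values were 7.27, 6.86, 6.97, 7.22 and 7.85 in the KO mice, 8.17, 8.07, 7.76, 7.99 and 8.06 in the HET mice and 8.13, 8.34, 8.14 and 8.69 in the WT mice. KO 5 was the highest of the KO mice and lay above HET 3, while the other 4 KO mice lay below all HET mice. The means were 7.23 ± 0.38 in KO (SD, n = 5), 8.01 ± 0.16 in HET (SD, n = 5) and 8.32 ± 0.26 in WT (SD, n = 4), and KO intensity was 44.2% of WT.

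Of the genes for metabolic enzymes, Tktl1 encodes a relative of transketolase, the enzyme of the non-oxidative pentose phosphate pathway, and lies on the X chromosome. The brightest of its 3 probe sets gave 7.05, 6.30, 6.76, 5.90 and 6.02 in the KO mice, 7.40, 7.29, 7.29, 7.0003 and 7.49 in the HET mice and 7.69, 7.56, 7.65 and 7.53 in the WT mice. All HET mice lay below all WT mice, whose 4 values lay close together, and KO 1 was the only KO mouse above a HET mouse. The means were 6.40 ± 0.49 in KO (SD, n = 5), 7.29 ± 0.19 in HET (SD, n = 5) and 7.61 ± 0.07 in WT (SD, n = 4), with KO at 43.8% of WT. The dimmest probe set, below the filter, gave 5.77, 5.20, 5.30, 5.41 and 5.21 in the KO mice, 6.14, 6.26, 6.03, 5.79 and 6.55 in the HET mice and 6.55, 6.66, 6.69 and 6.62 in the WT mice. There the 3 genotypes formed separate bands, KO lowest and WT highest, with HET 4 just above KO 1 and HET 5 just below WT 1. The differences of the 3 probe sets were -1.19, -0.88 and -1.21, and the first and second of them were annotated to the same sequence record, so they share a target. The sex term of the model was -0.03 (SE 0.17, limma adjusted p = 0.967) in males against females.

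Cyp27a1 encodes the mitochondrial sterol 27-hydroxylase, which acts in bile acid and oxysterol synthesis and is known from liver and macrophages. Its brighter probe set gave 8.79, 7.47, 8.32, 7.99 and 7.70 in the KO mice, 8.74, 8.75, 8.67, 8.82 and 8.85 in the HET mice and 8.91, 8.88, 9.04 and 9.23 in the WT mice. The 5 HET mice lay within a narrow range and all below the WT mice, whereas the KO mice were spread widely, KO 1 lying inside the HET range. The means were 8.06 ± 0.52 in KO (SD, n = 5), 8.77 ± 0.07 in HET (SD, n = 5) and 9.02 ± 0.16 in WT (SD, n = 4), and KO intensity was 51.3% of WT. The second probe set, at percentile 26.4 of the array by mean intensity, did not show the pattern, with 5.16, 4.73, 5.61, 4.66 and 4.55 in the KO mice, 5.29, 4.18, 4.62, 4.87 and 4.71 in the HET mice and 4.56, 5.58, 4.62 and 5.59 in the WT mice. On it all 3 genotypes overlapped and the difference was -0.24 (95% interval -0.86 to 0.39). The macrophage and monocyte markers summed to 954 to 2215 in KO, 889 to 2511 in HET and 921 to 1789 in WT mice, with 0 of 3 markers above the filter called. Csf1r, Adgre1, C1qa, C1qc, Mrc1, Vcam1 and Fcgr1 were below the filter, and the part of macrophage RNA in the Cyp27a1 values was not tested.

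Hs3st1 encodes the sulphotransferase that adds a 3-O-sulphate to heparan sulphate, which completes the site that binds antithrombin. Its values were 6.88, 6.53, 6.99, 6.58 and 7.14 in the KO mice, 7.94, 7.78, 7.04, 7.24 and 7.19 in the HET mice and 7.74, 7.95, 7.67 and 7.75 in the WT mice. The HET mice fell on both sides, HET 1 and HET 2 within the WT range and HET 3, HET 4 and HET 5 below it. KO 5 was above HET 3, and the means were 6.82 ± 0.26 in KO (SD, n = 5), 7.44 ± 0.39 in HET (SD, n = 5) and 7.78 ± 0.12 in WT (SD, n = 4), with KO at 50.3% of WT.

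Among the other genes, Rnf183 encodes a RING-type ubiquitin ligase. Its values were 6.90, 6.63, 6.75, 6.73 and 6.94 in the KO mice, 7.29, 7.12, 7.10, 7.18 and 7.24 in the HET mice and 7.39, 7.63, 7.29 and 8.52 in the WT mice. All KO mice lay below all HET mice, and 4 of 5 HET mice lay below the WT range, which was wide because of WT 4 at 8.52. The means were 6.79 ± 0.13 in KO (SD, n = 5), 7.19 ± 0.08 in HET (SD, n = 5) and 7.71 ± 0.56 in WT (SD, n = 4). Without WT 4 the KO difference was -0.69 in place of -1.03 and the HET difference -0.28 in place of -0.57.

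Ddx25 encodes a DEAD box RNA helicase known for its role in male germ cells. It had 8.47, 8.36, 8.57, 8.26 and 8.29 in the KO mice, 9.22, 8.72, 9.12, 8.96 and 8.94 in the HET mice and 9.26, 9.60, 9.13 and 9.31 in the WT mice. KO mice lay below all HET mice, with 4 of 5 HET mice below all WT mice. The means were 8.39 ± 0.13 in KO (SD, n = 5), 8.99 ± 0.19 in HET (SD, n = 5) and 9.32 ± 0.20 in WT (SD, n = 4), and KO intensity was 51.8% of WT. The sex term was 0.04 (SE 0.10, limma adjusted p = 0.926).

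Ccdc175 encodes a coiled-coil protein. The values were 8.49, 7.92, 8.17, 8.43 and 9.13 in the KO mice, 9.17, 9.26, 9.04, 9.06 and 9.38 in the HET mice and 9.67, 9.71, 9.42 and 9.69 in the WT mice. HET mice lay below all WT mice, and KO 5, the highest KO mouse, lay above HET 3 and HET 4. The means were 8.43 ± 0.45 in KO (SD, n = 5), 9.18 ± 0.14 in HET (SD, n = 5) and 9.62 ± 0.13 in WT (SD, n = 4), with KO at 43.1% of WT.

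**Figure D2:**
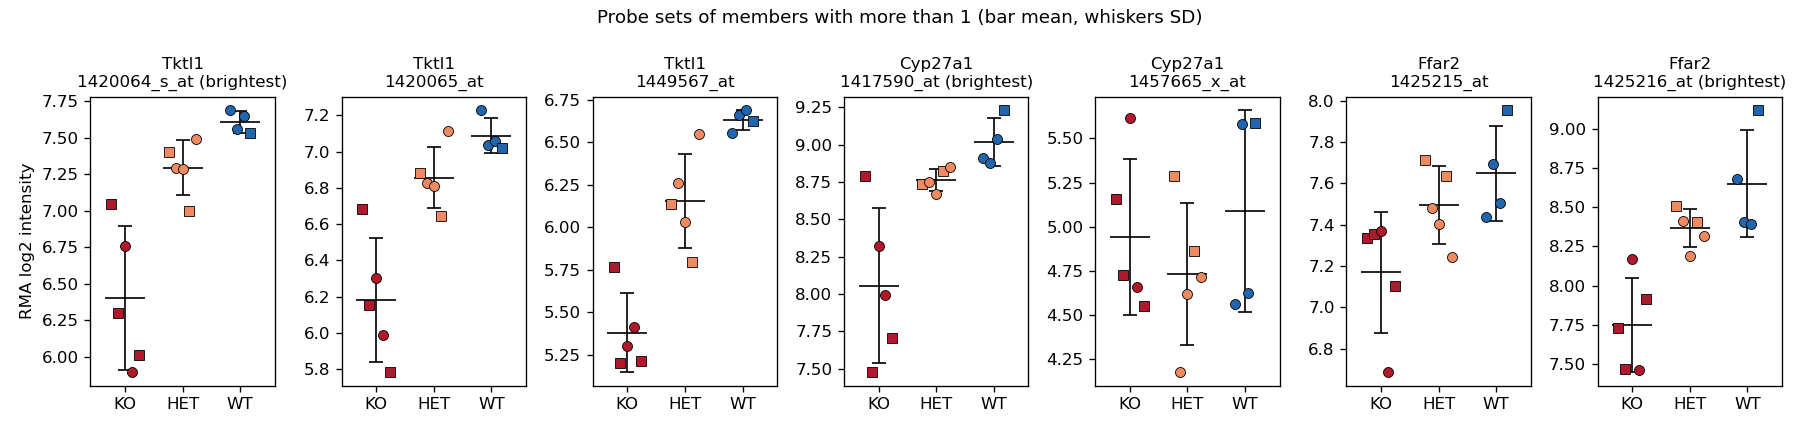
RMA log2 intensity (y axis) in every mouse for the 7 probe sets of Tktl1, Cyp27a1 and Ffar2, the genes with more than 1, with KO, HET and WT from left to right, circles for females, squares for males, bars for means and whiskers for SD. Of these 7 probe sets only the dimmer one of Cyp27a1 has KO and WT values that overlap.

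The next question was how far the loss of 1 allele went. The position of the HET mean between WT (0%) and KO (100%) had a median of 35.1% over the 10 genes and ranged from 26.0% ± 15.4 (SD, n = 5 mice) for Tktl1 and 26.1% ± 7.6 (SD, n = 5 mice) for Cyp27a1 to 46.7% ± 26.6 (SD, n = 5 mice) for Crisp3 and 56.9% ± 8.8 (SD, n = 5 mice) for Rnf183. In 9 of 10 genes it was under 50%, so that the mean of HET mice lay nearer to WT. For the exception, Rnf183, HET minus the midpoint was -0.06 in limma and its sign was not stable. It was 0.06 without WT 4, 0.005 without HET 4 and 0.03 with array weights. In the other fits that left out 1 array it stayed negative. Of the 50 HET values 48 lay between the KO and WT means, 39 lay below the lowest WT mouse of their gene and 39 above the highest KO mouse. The 2 values above the WT mean were those of HET 1 and HET 2 for Hs3st1. The KO and WT arrays that set these bounds also chose the genes, which favours such counts. Shares of HET values over all tested genes are not given.

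Whether the HET level departed from the midpoint of KO and WT was tested in limma as HET minus that midpoint, a contrast that is nearly uncorrelated with the KO difference by which the genes were chosen. The genes were listed as falling in steps, and whether HET values also entered that choice is not stated. The difference from the midpoint was positive in 9 genes, from 0.05 (95% interval -0.45 to 0.55) for Crisp3 to 0.29 (95% interval -0.07 to 0.65) for Tktl1, and -0.06 (95% interval -0.35 to 0.24) for Rnf183. The median was 0.15, against 0.01 over all tested genes. Of the 10 genes 0 passed (limma adjusted p = 1.00 each) and 0 had an unadjusted p under 0.05, where 0% of all tested genes passed and 0.89% had such a p. All 10 intervals of the departure included 0. A positive departure was found in 79.8% of the 119 other genes called lower in KO, against 9 of these 10.

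**Figure D3:**
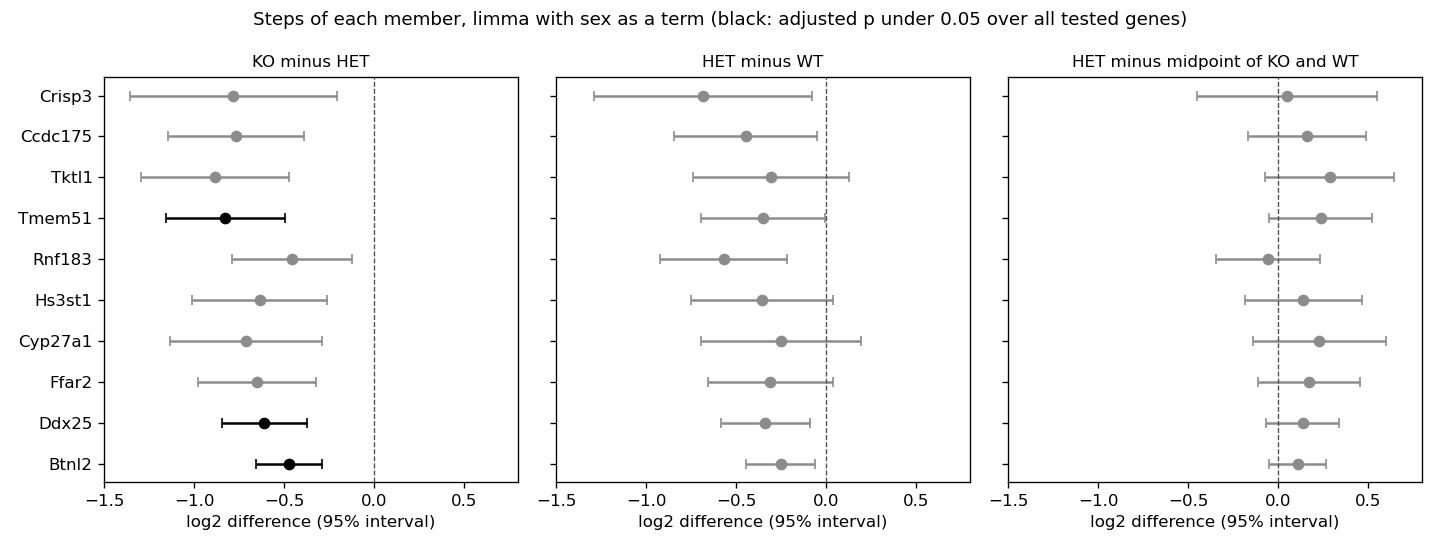
Log2 differences with 95% intervals (x axis) of each gene (y axis) for KO minus HET, HET minus WT, and HET minus the midpoint of KO and WT, from limma with sex as a term, black where the adjusted p over all tested genes was under 0.05. All KO minus HET and HET minus WT estimates are negative, the KO minus HET points of Tmem51, Ddx25 and Btnl2 are black, and all intervals of the midpoint contrast include 0.

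The step between KO and HET was negative in all 10 genes, with a median of -0.68. These differences share the KO arrays by which the genes were chosen and are not independent of the choice. Limma called 3 genes in this contrast, where 0.108% of all tested genes were called lower. They were Tmem51 at -0.83 (95% interval -1.16 to -0.50) with adjusted p = 0.0459, Ddx25 at -0.61 (95% interval -0.84 to -0.37) with adjusted p = 0.0453 and Btnl2 at -0.47 (95% interval -0.65 to -0.29) with adjusted p = 0.0453. The other 7 genes had adjusted p between 0.0961 and 0.466. The 3 calls were narrow. In the 14 fits that each left out 1 array Tmem51 was called in 1, Ddx25 in 2 and Btnl2 in 1. With no expression filter, a 60th percentile filter, females alone or a block for replicate number, 0 genes were called. Without KO 3 and WT 4 only Ffar2 was called. Repeated quantile normalisation, median centring and other limma options (trend and robust) each gave 3. No sex covariate gave 2, the mean of all probe sets 4 and array weights 7. In the main fit all 10 genes had an unadjusted limma p under 0.05, against 3.83% of all tested genes in this direction. The choice of the genes favours this count. KO mice lay below all HET mice in 4 of the 10 genes (Rnf183, Ffar2, Ddx25 and Btnl2), against 0.822% of all tested genes and 35.7% of the genes called lower in KO. Without KO 5 the count was 7.

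The step between HET and WT was also negative in all 10 genes, with a median of -0.34 and a range from -0.69 (95% interval -1.29 to -0.08) for Crisp3 to -0.25 (95% interval -0.70 to 0.19) for Cyp27a1. It shares the WT arrays with the choice. Limma called 0 of the 10 (adjusted p = 1.00 each), as it called 0% of all tested genes. In limma 6 of the 10 fell under 0.05 before adjustment, against 1.06% of all tested genes in this direction, a count that the choice also favours. Without WT 4 the HET differences of Ffar2 and Cyp27a1 were -0.14 and -0.15, against -0.31 and -0.25 with it. HET mice lay below all WT mice in 3 genes (Ccdc175, Tktl1 and Cyp27a1), against 0.469% of all tested genes and 10.9% of those called lower in KO. This count was 7 without HET 1 and 6 without WT 3. On their brightest probe sets 0 of the 10 genes formed 3 bands without overlap, which 0.0587% of all tested genes and 3.88% of those called lower in KO did. Without HET 1 the count was 3, without WT 3 or without KO 1 it was 2, and without WT 2, HET 4 or KO 5 it was 1.

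The mean difference of the 10 genes from their WT means was -0.82 to -1.28 in the 5 KO mice, -0.26 to -0.52 in the HET mice and -0.17 to 0.21 in the WT mice. Each KO mouse was below the WT minimum in 10 of 10 genes. Among HET mice the count was 10 genes in HET 3, 9 in HET 5, 8 in HET 2 and in HET 4, and 4 in HET 1. These counts rest on the WT arrays by which the genes were chosen, which favours them. Shares over all tested genes are not given for single mice. HET 3 was the lowest of its group in 7 genes, KO 2 in 6 and WT 3 in 6, while WT 4 was the highest WT mouse in 5.

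**Figure D4:**
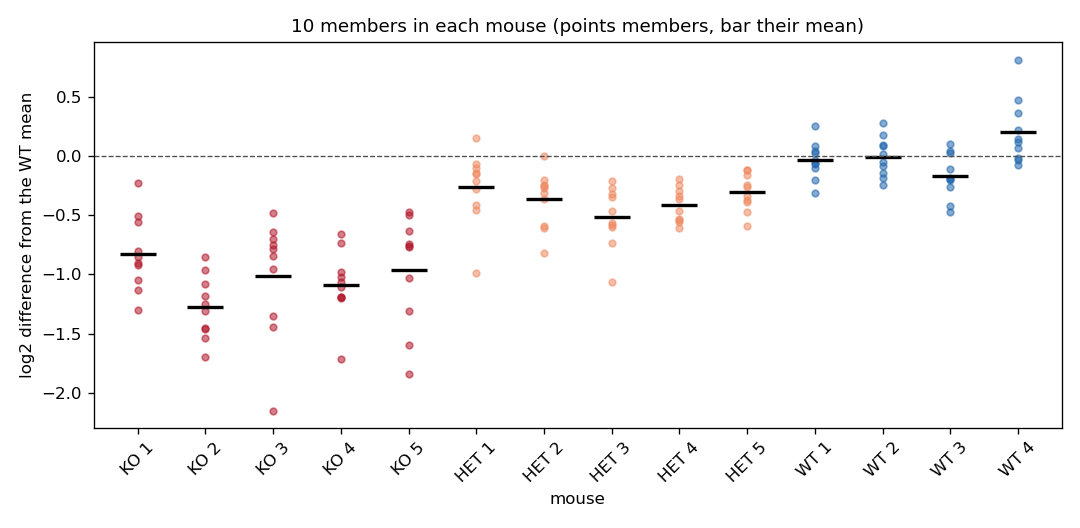
Log2 difference of each of the 10 genes from its WT mean (y axis) in every mouse (x axis), points for genes and bars for their mean. The KO bars lie between -1.28 and -0.82, below the HET bars at -0.52 to -0.26, which lie below the WT bars at -0.17 to 0.21.

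Males made up a larger share of the KO than of the WT mice, so the sizes of the differences are also given within each sex. That KO was below WT in every gene within either sex follows from the lack of overlap between KO and WT mice given above and is no check of sex. Among females (2 KO, 3 HET and 3 WT mice) the KO minus WT differences ran from -0.64 to -1.36, and among males (3 KO, 2 HET and 1 WT mouse) from -0.85 to -1.70. HET lay below WT, and KO below HET, in 10 of 10 genes in either sex. These counts share the WT and KO arrays with the choice, so they are no independent check of the steps. Shares over all tested genes are not given within sex. The sex term itself, which the choice did not use, had a median of 0.07 over the 10 genes. Limma called 0 of the 10, with 0.0293% of all tested genes called (0.0196% lower and 0.00978% higher in males). On the brightest probe sets an unadjusted p under 0.05 was found for Rnf183 (0.32, SE 0.14, adjusted p = 0.765) alone, against 6.38% of all tested genes. Rnf183 averaged 6.82 in males and 6.74 in females of KO, and 7.23 and 7.15 in HET. In WT the 1 male had 8.52, against 7.44 in females. In the fit of all probe sets the second probe set of Ffar2 also had such a p (0.30, SE 0.10, limma adjusted p = 0.596).

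Within genotypes, after group means and sex were removed, some of the genes varied together from mouse to mouse. Over the 45 pairs the median correlation of these residuals was 0.17 and 34 were positive, against a median of 0.04 and 53.1% positive pairs among all tested genes. These are descriptions over 14 arrays that all pairs share. The highest was between Ccdc175 and Tmem51 (r = 0.93), which lie on different chromosomes and rank the 5 KO mice in the same order, KO 2 lowest and KO 5 highest. It was 0.85 without KO 5 and at least that without any other array. The next were Cyp27a1 with Btnl2 (0.70), Tktl1 with Cyp27a1 (0.68, but 0.28 without KO 1) and Rnf183 with Ffar2 (0.62, but 0.32 without WT 4). Crisp3 was negatively correlated with Hs3st1 (-0.41) and Ffar2 (-0.33).

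**Figure D5:**
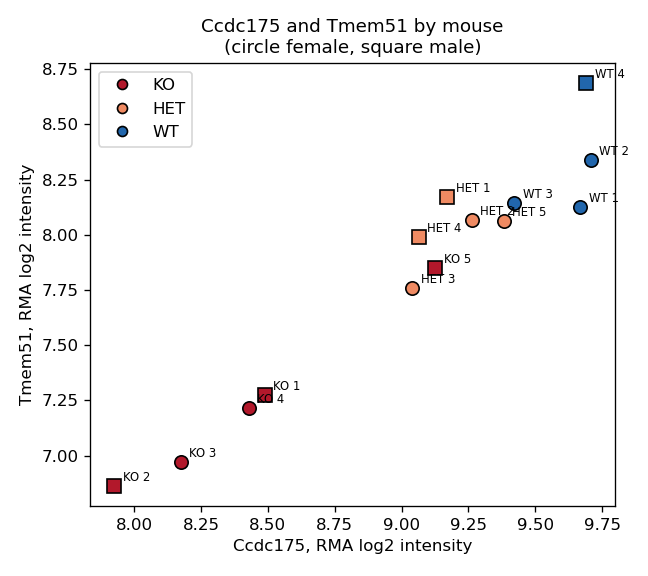
RMA log2 intensity of Tmem51 (y axis) against Ccdc175 (x axis), 1 point per mouse, coloured by genotype, circles for females and squares for males. KO 2 has the lowest value of both genes and KO 5 the highest of the KO mice, close to HET 3.

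Families and pathway partners of the 10 genes were described from lists of 113 genes written by function, of which 92 had a named probe set and 55 were tested. In KO against WT 0 of the 55 were called by limma, against 2.44% of all tested genes, and 6 of the 55 had an unadjusted limma p under 0.05, against 13.1% of all tested genes. Their median difference was -0.02, against -0.00 over all genes, with 32 negative and 23 positive. In heparan sulphate synthesis and sulphation 0 of 11 tested genes passed, with Extl1, an exostosin-like glycosyltransferase, at -0.42 (SE 0.12, limma adjusted p = 0.083) and Extl3 at -0.18 (SE 0.07, adjusted p = 0.295). Extl1 passed without the sex covariate. Of the sterol hydroxylation and oxysterol genes 0 of 8 passed, with the cholesterol exporter gene Abca1 at 0.37 (SE 0.12, limma adjusted p = 0.129) and the oxysterol hydroxylase gene Cyp39a1 at -0.27 (SE 0.09, adjusted p = 0.146). Abca1 passed with array weights and without KO 5.

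Among the 24 tested DEAD box helicases 0 passed, with a median of -0.02 and the smallest p at Ddx55 (0.19, SE 0.09, limma adjusted p = 0.357), followed by Ddx42 (-0.18, SE 0.11, adjusted p = 0.576). The 8 tested transketolase and pentose phosphate genes had a median of -0.00, with Pgd, the phosphogluconate dehydrogenase, at 0.13 (SE 0.07, limma adjusted p = 0.509) and the phosphoribosyl pyrophosphate synthetase gene Prps2 at 0.08 (SE 0.06, adjusted p = 0.642). Of the CAP family 3 genes were tested, with Glipr2 at -0.18 (SE 0.12, limma adjusted p = 0.617) and Crispld2 at -0.08 (SE 0.22, adjusted p = 0.945). Rnf225 was the 1 tested relative of Rnf183, at -0.27 (SE 0.21, limma adjusted p = 0.691). The named fatty acid receptors (6) and butyrophilins (3) had 0 members above the filter.

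Outside the 10, the tested genes whose levels over the 14 arrays were most like the mean standardised profile of the 10 were Psen2, a subunit of gamma-secretase (Pearson r = 0.94), Ifnlr1 (0.94), Aldh3b1 (0.94), Nr4a1 (0.93) and BC028528 (0.93). Psen2 averaged 9.41 ± 0.16 in KO (SD, n = 5), 9.81 ± 0.11 in HET (SD, n = 5) and 9.94 ± 0.12 in WT (SD, n = 4), and Aldh3b1, an aldehyde dehydrogenase gene, 7.79 ± 0.10 in KO, 8.10 ± 0.06 in HET and 8.17 ± 0.02 in WT (SD). BC028528 averaged 10.18 ± 0.13 in KO, 10.54 ± 0.08 in HET and 10.77 ± 0.04 in WT (SD). The most opposed profiles were those of Thyn1 (r = -0.92), Ccng1 (-0.90), Iglv1 (-0.89), Raph1 (-0.89) and Fmn2 (-0.89). Raph1, which encodes lamellipodin, a regulator of actin at the cell edge, averaged 10.42 ± 0.20 in KO, 9.93 ± 0.07 in HET and 9.50 ± 0.21 in WT (SD). The KO difference of Ccng1 did not pass (0.17, SE 0.05, limma adjusted p = 0.129). These correlations are over arrays of 3 genotypes and mostly describe the genotype difference on which the profile was built.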

How the data were processed

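Log2 intensities of 45101 probe sets on 14 Affymetrix arrays were used as deposited by the authors. The submitters' processing notes name RMA (background subtraction, quantile normalisation and summary of probes), the version of which is not given in the sources used here. RMA compresses changes of dim probe sets, and quantile normalisation would hide a change of most genes. No detection calls were used. Of the 45037 non-control probe sets 34945 were annotated to 1 gene and 932 to several, and 34741 of the former matched RefSeq by gene identifier. Each gene was represented by its brightest probe set and tested if that mean exceeded 6.43, which left 10225 of 18193 genes.

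Groups and sex came from the labels. All 14 arrays entered 1 model of genotype plus sex in limma 3.58.1 (lmFit, eBayes; R 4.3.3), with Benjamini-Hochberg adjustment across the tested genes and a threshold of 0.05. A second fit covered all non-control probe sets without a filter. The fits were tested on simulated data. The 10 genes and the lists of relatives and markers were chosen with earlier results of these data known. Text names all 10 genes, up to 2 relatives per list with the smallest p and any called, and the 5 most alike and 5 most opposed genes. Alternatives changed the filter, probe set choice, normalisation, sex covariate, limma options, array weights, the replicate block and the arrays included. Each mouse is a separate animal, and the number of arrays limits the precision. Some markers of the lists were not analysed here.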

Additional observations from a re-analysis of the deposited data

Results flagged for a closer look

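In the WT group Ccdc175 had 1 sample far from the others: WT 3 was at 9.42, while the other 3 WT mice were between 9.67 and 9.71. It was the 1 such sample among 42 groups of values (14 probe sets in 3 genotypes), where chance gives about 1 in 20.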

How the results depend on the processing

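The KO difference stayed negative in every setting for all genes that were available, 10 of 10 except with a filter at the 60th percentile, where 6 of 6 remained with negative differences in KO against WT, KO against HET and HET against WT. The choice of the genes and the lack of overlap between KO and WT mice largely fix the sign of KO against WT. Its size moved by more than the residual SD of the gene in some settings. With the mean of its probe sets Cyp27a1 was -0.60 in place of -0.96. In females alone Rnf183 was -0.69 and Ffar2 -0.68. Without KO 3 and WT 4 Crisp3 was -0.99 and Rnf183 -0.70, and without WT 4 Rnf183 was -0.69. The fall of Ddx25 was larger with array weights, at -1.15 in place of -0.95. The number of genes called lower in KO against WT, 129, was 80 with no filter, 32 in females alone and 28 without KO 3 and WT 4, and 42 to 160 with 1 array left out, the lowest without WT 4. The number called higher, 120, was 47 in females alone, 47 without KO 3 and WT 4, and 74 to 132 with 1 array left out. Between KO and HET the 3 called genes became 0 with no filter, 0 with the 60th percentile filter, 0 in females alone, 0 with the replicate block, 1 (Ffar2) without KO 3 and WT 4, 7 with array weights and 0 to 3 with 1 array left out. Of the pairs of mice with the same replicate number 9 of 13 had residual correlations over 0.1 (median 0.17), against 12 of 52 pairs with different numbers (median -0.05). The pairs with the same number ran from -0.12 (WT 4 and HET 4) to 0.43 (HET 5 and KO 5). The labels give no pairing. Whether the numbers mark a pairing was not tested, and the main fits did not use them. With them as a block, the 3 calls between KO and HET were lost. In HET against WT, HET minus the midpoint and the sex term, 0 of the 10 genes were called with or without the block. For KO against WT the calls on the 10 genes with the block are not given. Over all tested genes 91 were called lower there, against 129 in the main fit. The relatives called in KO, 0, became 1 without the sex covariate (Extl1), 1 with array weights (Abca1) and 0 to 1 with 1 array left out. Genes with all HET mice below all WT mice, 3, were 5 after repeated quantile normalisation, 7 in females alone and 3 to 7 with 1 array left out. Those with all KO below all HET, 4, were 9 in females alone and 4 to 7 with 1 array left out. Those in 3 bands, 0, were 3 after repeated quantile normalisation, 1 after median centring, 7 in females alone and 0 to 3 with 1 array left out. Fewer mice leave fewer chances to overlap. The sign of HET minus the midpoint, never called, turned for Crisp3 to -0.130 with array weights and -0.00562 without KO 3 and WT 4 (-0.0974 to 0.172 with 1 array left out). It turned for Rnf183 to 0.0644 in females alone, 0.0339 with array weights and 0.0652 without KO 3 and WT 4 (-0.115 to 0.0638 with 1 array left out), and for Cyp27a1 to -0.0233 with the mean of its probe sets. The causes were not tested. Leaving out arrays for the correlations between genes was chosen after seeing the data. Signal over background could not be judged without detection calls, which limits the dim probe sets of Cyp27a1 and Tktl1 most.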
